A study of Brassica rapa with 23 samples.

Results

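Leaf discs of Brassica rapa ssp. pekinensis cultivar Norang (Chinese cabbage) were compared after 180 and 30 min in chitin at 100 µg/mL. These are 6 RNA-seq libraries of the 23 in the series, taken as every library labelled with chitin, 3 at each time. The question was which transcripts rose and which fell between the early and the late sampling of the same treatment. The other libraries served as comparators over the same interval. They were discs in water, 5 libraries at 30 min and 6 at 180 min, and discs in the bacterial flagellin peptide flg22 at 100 nM, 3 libraries at each time.

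All groups were wild type plants of 17 days, grown in short days, and each library pooled discs of the first true leaf of 1 commercial cultivar. Cutting the discs is a step that every group shares, water included. The labels give biological replicates 1 to 3, and water libraries are named here by that number and their sample number, as in 3-s21. The study had a set of water controls for each elicitor, with 1 library at 30 min shared, but the labels do not say which water library belongs to which set. The aligned bases of the water libraries at each time rank as the mapped reads that the study lists for each set. By that ranking, the chitin controls were 2-s13 and 3-s21 at 30 min and 1-s7, 2-s15 and 3-s23 at 180 min. Library 1-s1 was the shared one. All 11 water libraries were used together, so every water level, range and course below spans both sets. A difference between the sets was not tested, although some named genes were lowest in 2-s13 and 3-s21 among the water libraries at 30 min. Leaf discs hold several cell types. In such bulk RNA, fewer cells of a type and less RNA per cell cannot be told apart. Markers of leaf cell types could not be checked, because the identifiers of the files are not paired with marker symbols in the tables used here.

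Chitin is a polymer of the fungal cell wall. In Arabidopsis it is bound at the cell surface by receptors with lysin motifs (LysM), among them LYK5, with CERK1 as the signalling kinase. Pattern recognition of this kind starts a fast wave of transcription and, later, the synthesis of defence proteins and metabolites. In Brassicaceae these include glucosinolates, sulfur-rich compounds made from amino acids such as tryptophan and methionine.

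The files name genes by Bra identifiers only. Symbols below are those the study gives, and all other genes are given by identifier and by position (B. rapa chromosome v1.5), with no role. No genome of that build was used here, so the sequences shown are the primers with which the study measured some of these transcripts by quantitative PCR. They are shown because they tie 4 of the transcripts described below, 2 that fell and 2 that rose, to a defined amplicon (all 5′ to 3′, in lower case).
BraNHL10 (Bra017272, A04) forward: ttcaacgccggagagttacg
BraNHL10 (Bra017272, A04) reverse: tccccaagcttaaacctaaccc
Bra010367 (A08) forward: atggtaatcgtggcgttgtt
Bra010367 (A08) reverse: ccaaacgctgaaaccaaaa
UGT74B1 (Bra024634, A09) forward: ccagaagggtttgtggaagc
UGT74B1 (Bra024634, A09) reverse: cggaactcccaaactcaacc
Endochitinase (Bra000310, A03) forward: gcgttctttgctcacgtcac
Endochitinase (Bra000310, A03) reverse: gttccaggagagctggatcg

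Levels are FPKM, fragments scaled to transcript length and to the mapped fragments of the library, which are per length and so comparable between genes. The 23 libraries held 4.09 to 5.64 gigabases aligned to genes, as coverage times length shows, and 30.2 to 33.2% of the 41020 listed genes were at 0 in a library. Across tested genes, log2(FPKM + 1) correlated at 0.946 to 0.982 between chitin libraries of 1 time (6 pairs) and at 0.749 to 0.873 between the times (9 pairs). An FPKM of 0 can be a failed estimate: 72 values of 0 stood in conditions whose median was at least 10, 8 of them at each chitin time.

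Much of the measured transcriptome differed between 180 and 30 min in chitin. Of 22019 genes tested, those that reached an FPKM of 1 in 3 or more of the 6 libraries, 4059 rose (18.4%) and 2909 fell (13.2%), together 31.6%. A gene was called at a change of at least 2-fold on the log2(FPKM + 1) scale and an adjusted p under 0.05 (limma with Benjamini-Hochberg adjustment over all tested genes). That scale understates the change of low genes. Falls were the larger changes. A change of at least 4 on the log2 scale was reached by 58 falling and 20 rising genes, and one of at least 5 by 14 falling and 2 rising genes. The 3 libraries at 180 min lay above all 3 at 30 min in 3993 of the genes that rose, and below them in 2768 of those that fell. Over all tested genes the groups did not overlap in 46.3% with higher and 21.9% with lower values at 180 min.

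**Figure D1:**
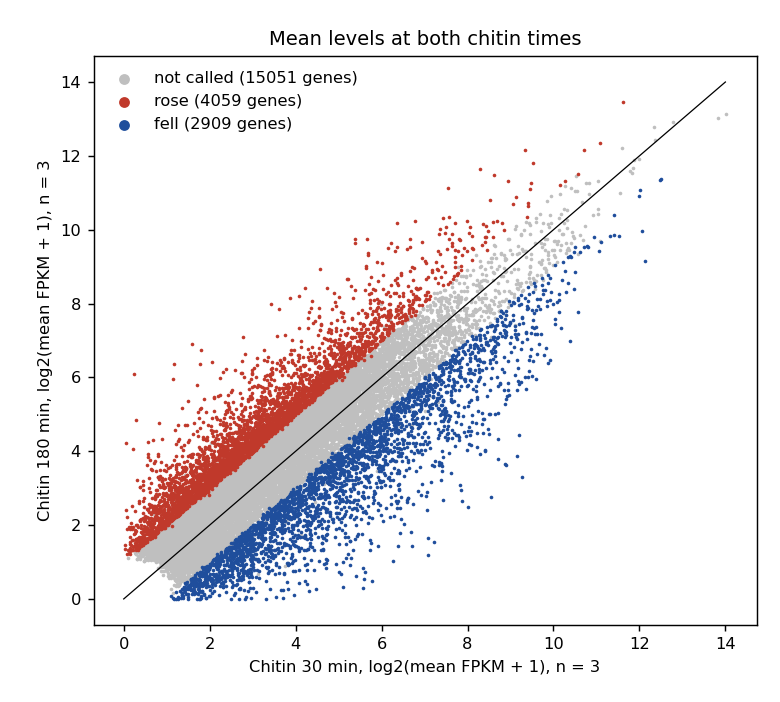
Mean level of each tested gene at 30 min (x axis) and 180 min (y axis) of chitin, both log2(mean FPKM + 1) over 3 libraries, with 1 point per gene, the diagonal marking equal levels. The 2909 genes that fell include many with high levels at 30 min and low levels at 180 min, while the 4059 that rose lie above the diagonal at all levels.

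The balance of rises and falls depended on how the libraries were scaled. With FPKM as deposited, 58.3% of called genes rose. When each library was divided by its median ratio to the geometric mean of all libraries, 2078 genes rose (9.44%) and 4324 fell (19.6%), so that 32.5% of calls were rises. The size factors were 0.757 to 0.800 in the 3 libraries at 30 min and 0.985 to 1.063 at 180 min, and the median log2 change of all tested genes was 0.33 with FPKM and -0.01 after scaling. All 2909 falls were called under both scalings, against 2078 of the 4059 rises (51.2%), and no gene was called in opposite directions. Scaling moved the whole distribution down, so kept falls and lost rises followed from the shift. The overlap thus does not show that falls were firmer calls than rises. FPKM changes below are thus to be read against a median gene at 0.33. Each named gene's call is given for FPKM, and its value after scaling is given where that changes the call.

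**Figure D2:**
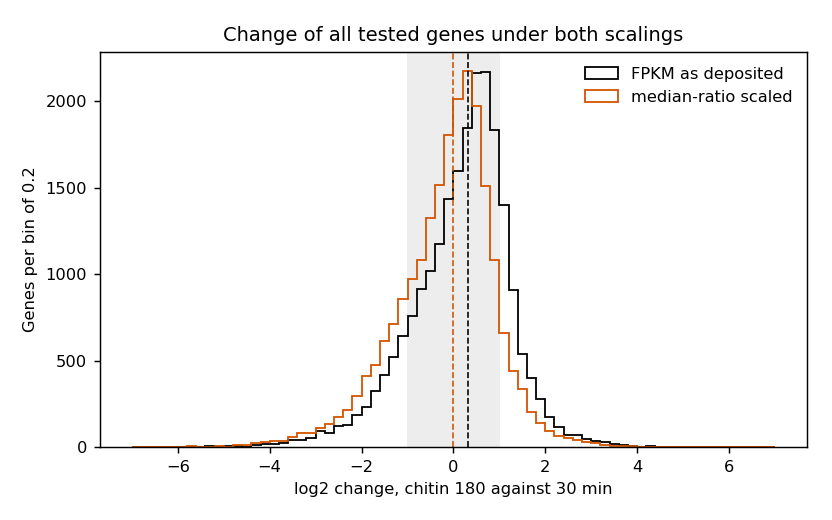
Distribution of the log2 change from 30 to 180 min of chitin over the 22019 tested genes (genes per bin of 0.2), with FPKM as deposited in black and after median-ratio scaling in orange, dashed lines at the medians and the grey band marking changes under 2-fold. The whole distribution moves left after scaling, from a median of 0.33 to -0.01.

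The genes that fell took up much of the mRNA at 30 min. Their summed FPKM made up 30.6 to 35.8% of each library at 30 min of chitin and 7.39 to 12.1% at 180 min, against 17.0 to 29.6% in water at 30 min and 14.7 to 23.1% in water at 180 min. The genes that rose went from 7.69 to 11.2% of a library to 25.9 to 35.2%. The median of their mean levels was 6.43 FPKM at 30 min and 19.7 FPKM at 180 min with chitin, and 11.9 and 14.4 FPKM in water. For the genes that fell these medians were 28.6 and 6.83 FPKM with chitin, and 15.6 and 11.8 FPKM in water. In both sets the water level lay between the 2 chitin levels. Both sets were picked for a large change with chitin, which by itself favours such an order. For all tested genes the medians were 8.95 and 11.0 FPKM with chitin and 11.6 and 11.7 FPKM in water.

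The position of each gene against the range of the water libraries at the same time showed several kinds of course. Among the 4059 genes that rose, the mean at 30 min of chitin was below every water library in 2827 (69.7%), beside 58.7% of all tested genes. Of these, 1374 were above every water library at 180 min, 1151 were within the water range and 302 were still below it. As shares of the 4059 these were 33.85%, 28.4% and 7.44%, beside 10.85%, 22.5% and 25.4% of all tested genes with the same positions. Another 773 rose from within the water range to above it (19.0%, beside 8.06% of all tested genes). Among the 2909 genes that fell, 1226 (42.1%) were above the water range at 30 min, beside 14.7% of all tested genes. Of these, 673 were still above it at 180 min, 343 had come back into it and 210 were below it. As shares of the 2909 these were 23.1%, 11.8% and 7.22%, beside 10.4%, 3.10% and 1.21% of all tested genes with the same positions. Another 1024 fell from within the water range to below it (35.2%, beside 9.78% of all tested genes). Another 502 were below it at both times (17.3%), a smaller share than the 25.4% of all tested genes.

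These positions also depended on scaling. Of all tested genes, 58.7% were below the water range at 30 min of chitin with FPKM, and 26.1% after median-ratio scaling. After scaling, 42.4% of the 2078 genes that rose started below the water range and 47.5% within it, while 44.5% of the 4324 that fell started above it and 51.3% within it. Over all tested genes these shares were 26.1% below, 46.9% within and 26.9% above, so the shares within the range were near those of all genes. The comparison on this scale was chosen after seeing the data.

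Of the 23 genes that the study names, 19 passed the filter on low values. Of these 9 rose and 4 fell, beside 18.4% and 13.2% of all tested genes. Their median log2 change was 0.72, against 0.33 for all tested genes. The study picked part of them from these libraries, so the count is not independent evidence of a direction.

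The chitin receptors did not move together. Of the 4 genes, 1 rose and 1 fell (18.4% and 13.2% of all tested genes), with a median log2 change of 0.22. LYK5 (Bra021861, A04:15018935-15023059), the LysM receptor kinase that binds chitin in Arabidopsis, was at 61.1, 77.1 and 106.5 FPKM in replicates 1, 2 and 3 at 30 min and at 9.95, 8.24 and 10.8 FPKM at 180 min. Every library at 30 min was thus above every library at 180 min, and those at 180 min were still above the 11 water libraries (1.15 to 3.80 FPKM). The change was -2.93 ± 0.30 (log2, SE, n = 3 and 3, limma adjusted p = 1.6e-07).

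CERK1 (Bra031293, A05:16977701-16980704), the kinase required for chitin signalling in Arabidopsis, was at 59.6, 29.5 and 37.4 FPKM at 30 min and 36.4, 36.3 and 28.4 FPKM at 180 min. The times overlapped, and all 6 values were above the water libraries (6.51 to 16.0 FPKM). The change of -0.26 ± 0.29 (log2, SE, limma adjusted p = 0.43) did not pass the test. After median-ratio scaling it was -0.65 with an adjusted p of 0.040 (limma), under 2-fold, and without replicate 1 at 30 min it was 0.010 (log2) with FPKM.

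Both homologs of LYM2, a LysM protein that binds chitin in Arabidopsis, had higher values at 180 min in every library. Bra009660 (A06:17045973-17047648) was at 65.7, 39.8 and 52.0 FPKM at 30 min and at 113.7, 106.8 and 97.2 FPKM at 180 min, a rise of 1.03 ± 0.24 (log2, SE, limma adjusted p = 0.0011). Its change was under 2-fold after median-ratio scaling (0.64), without replicate 2 at 30 min (0.84) and without replicate 1 at 180 min (0.97). Its difference from the water course, 1.195 on the log2 scale, was also under 2-fold after scaling (0.84). Bra002021 (A07:2492928-2494398) went from 9.31, 5.67 and 10.5 FPKM to 12.6, 13.2 and 16.5 FPKM, a change of 0.70 ± 0.31 (log2, SE) that did not pass the test (limma adjusted p = 0.054). The adjusted p was 0.046 with TPM, 0.035 with the chitin libraries alone in the fit and 0.041 without replicate 3 at 30 min (limma), with changes under 2-fold.

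Of the 8 homologs of receptors for bacterial patterns, 4 were tested, 2 rose and 1 fell, beside 18.4% and 13.2% of all tested genes. BraFLS2 (Bra017563, A09:12614687-12620601), the flagellin receptor kinase, went from 4.45, 3.08 and 2.57 FPKM to 12.4, 9.81 and 9.03 FPKM with chitin. The groups did not overlap and the rise was 1.40 ± 0.29 (log2, SE, limma adjusted p = 0.00037). BraFLS2 rose in water as well, by 1.09 on the log2 scale (limma adjusted p = 0.0023), and the chitin course exceeded the water course by 0.31 ± 0.37 (log2, SE, limma adjusted p = 0.49), which did not pass the test.

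Bra031434 (A01:17330202-17333139), the closest homolog of the lipopolysaccharide receptor LORE, rose from 27.2, 19.5 and 21.1 FPKM to 57.7, 44.1 and 52.1 FPKM, by 1.16 ± 0.31 (log2, SE, limma adjusted p = 0.0028). Its water course was flat at -0.01, and the difference between the courses was 1.17 ± 0.38 (log2, SE, limma adjusted p = 0.017). After median-ratio scaling the rise was 0.77 and the difference 0.82 (limma adjusted p = 0.059), both under 2-fold, and without water library 3-s17 at 30 min the difference was 0.98. BraEFR2 (Bra002305), a receptor of the bacterial elongation factor EF-Tu, was low throughout, at 0.679 to 1.13 FPKM at 30 min and 1.46 to 2.75 FPKM at 180 min. Its change of 0.72 ± 0.18 (log2, SE, limma adjusted p = 0.0017) stayed under 2-fold on this scale and was 1.18 with a pseudocount of 0.1.

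Bra016402 (A08:17512432-17514340), a homolog of the peptidoglycan-binding protein LYM1, fell from 4.26, 6.02 and 4.86 FPKM to 1.58, 1.68 and 2.77 FPKM, by 1.02 on the log2 scale (SE 0.21, limma adjusted p = 0.00032). It was under 2-fold without replicate 2 at 30 min (-0.91) and without replicates 1 (-0.92) or 2 (-0.95) at 180 min. The other LYM1 homolog (Bra017956) and the LYM3 homolog (Bra008320) did not pass the filter. They were at 0.335 to 0.749 and 0.555 to 1.18 FPKM at 30 min, and at 0.0615 to 0.166 and 0.113 to 0.457 FPKM at 180 min. A further FLS2 copy (Bra022032) and BraEFR1 (Bra006560) were listed at 0 in all 23 libraries.

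The marker of early pattern responses fell without coming back to the water level. BraNHL10 (Bra017272, A04:15740520-15741203), a gene used as a marker of pattern-triggered immunity, was at 696.7, 383.3 and 293.7 FPKM at 30 min and at 200.0, 213.5 and 93.9 FPKM at 180 min. No library at 180 min reached the lowest at 30 min, and all 6 were above the water libraries (3.02 to 17.5 FPKM). The fall was -1.42 ± 0.54 (log2, SE, limma adjusted p = 0.024). It no longer passed the test without replicate 1 at 30 min (-1.07) or without replicate 3 at 180 min (-1.05). The difference between its chitin and water courses, -1.12 ± 0.67 (log2, SE, limma adjusted p = 0.17), did not pass the test.

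Bra010367 (A08:13373824-13374042), a short gene that the study followed by quantitative PCR, had a steeper fall. It was at 522.6, 398.7 and 222.0 FPKM at 30 min and at 68.8, 98.9 and 57.2 FPKM at 180 min, while water libraries held 0.0316 to 2.35 FPKM. The change was -2.28 ± 0.38 (log2, SE, limma adjusted p = 4.5e-05). Bra031321 (A05:16724079-16725332), also measured by quantitative PCR, was at 243.0, 108.0 and 150.7 FPKM and then at 132.6, 145.0 and 102.7 FPKM, against 0.827 to 4.98 FPKM in water. Its times overlapped and its change of -0.33 ± 0.34 (log2, SE, limma adjusted p = 0.39) did not pass the test. The 3 genes were thus all far above water at both times but differed in how much was left at 180 min.

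Bra020747 (A02:22780454-22783117) had the opposite course. It was at 0.799, 0.210 and 0.512 FPKM at 30 min and at 4.79, 6.37 and 10.0 FPKM at 180 min, with 4.73 to 12.0 FPKM in water at 30 min and 6.78 to 13.7 FPKM at 180 min. Every chitin library at 30 min was thus below the water range. At 180 min replicates 1 and 2 were still below it and replicate 3 was inside it. The rise was 2.39 ± 0.28 (log2, SE, limma adjusted p = 9.6e-07).

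Bra009738 (A06:17546779-17549963) was low at both chitin times, at 4.02, 1.63 and 0.569 FPKM and then 0.607, 1.13 and 2.22 FPKM. In water it rose from 1.71 to 17.1 FPKM to 45.3 to 124 FPKM, by 3.28 on the log2 scale (limma adjusted p = 4.3e-05). The chitin course was -0.30 ± 0.52 (log2, SE, limma adjusted p = 0.62) and turned to 0.13 without replicate 1 at 30 min. The difference from the water course was -3.58 ± 0.65 (log2, SE, limma adjusted p = 0.00023). The reference gene of the quantitative PCR, BraEF1α (Bra006661), which encodes a translation elongation factor, was at 112.5 to 146.4 FPKM at 30 min and 189.3 to 204.4 FPKM at 180 min. Its change was 0.59 with FPKM (limma adjusted p = 0.048) and 0.20 after median-ratio scaling (limma adjusted p = 0.45).

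The study singles out by identifier 3 genes of glucosinolate synthesis, chosen for their change at 180 min of chitin in these libraries, so their direction is not independent evidence. All 3 rose (beside 18.4% of all tested genes), with a median log2 change of 2.80. CYP79B3 (Bra030246, A04:10022729-10024935), the cytochrome P450 that in Arabidopsis converts tryptophan to indole-3-acetaldoxime, was at 4.02, 9.53 and 7.82 FPKM at 30 min and at 79.6, 73.0 and 73.5 FPKM at 180 min. The 3 libraries at 30 min were below the water libraries (13.7 to 34.6 FPKM) and the 3 at 180 min above them. The means differed by 10.6-fold and the log2 change was 3.30 ± 0.38 (SE, limma adjusted p = 6.7e-07).

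UGT74B1 (Bra024634, A09:25123658-25125223), a glucosyltransferase of the glucosinolate core pathway, rose from 38.4, 37.0 and 42.0 FPKM to 329.3, 294.3 and 219.9 FPKM, by 2.80 ± 0.39 (log2, SE, limma adjusted p = 6.7e-06). APK2 (Bra017872, A03:31218969-31220359), the adenosine-phosphosulfate kinase that supplies activated sulfate, rose from 13.9, 19.3 and 29.3 FPKM to 113.0, 97.5 and 57.1 FPKM, by 2.05 ± 0.41 (log2, SE, limma adjusted p = 0.00021). For both genes, every library at 180 min was above the water range at that time, which ended at 121.6 FPKM for UGT74B1 and 25.0 FPKM for APK2. Replicate 3 was the lowest of the 3 libraries at 180 min in both.

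SAMS3 and an endochitinase, which the study names among late chitin genes, rose too. SAMS3 (Bra017219, A04:16058827-16059999), an enzyme that makes the methyl donor S-adenosylmethionine, went from 36.9, 22.4 and 30.2 FPKM to 193.2, 198.3 and 86.5 FPKM, a rise of 2.31 ± 0.47 (log2, SE, limma adjusted p = 0.00028). The endochitinase (Bra000310, A03:10496406-10497525), of an enzyme class that cleaves chitin, went from 35.1, 29.7 and 22.2 FPKM to 108.1, 129.9 and 144.8 FPKM. Its rise was 2.11 ± 0.26 (log2, SE, limma adjusted p = 1.7e-06), with no overlap between the times. All 5 of these rises were called under both scalings.

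**Figure D3:**
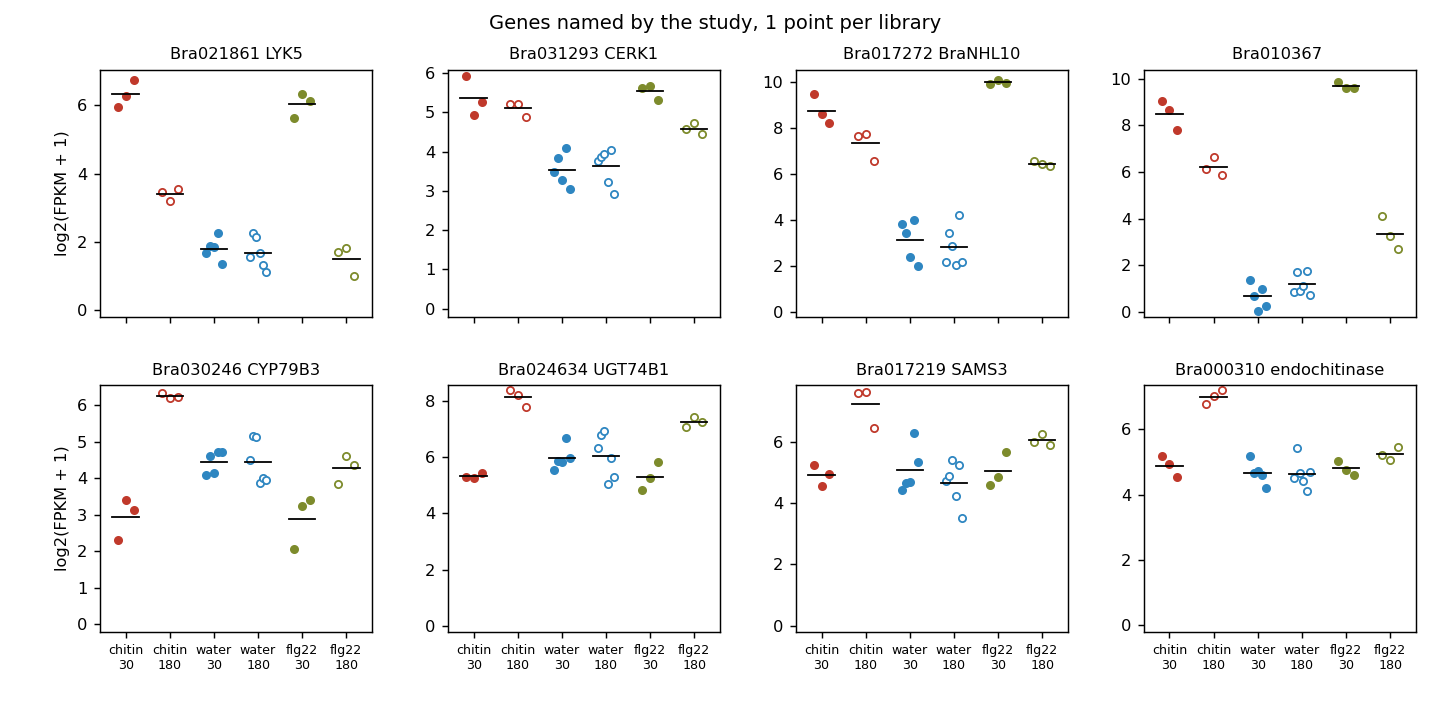
Levels of 8 genes that the study names, as log2(FPKM + 1) on the y axis, with 1 point per library, the line at the mean, filled points for 30 min and open points for 180 min of chitin (red), water (blue) and flg22 (green). LYK5, BraNHL10 and Bra010367 fell with chitin but stayed above water at 180 min, and the 4 genes of the lower row rose above the water libraries.

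The largest falls went from high levels at 30 min to a few FPKM. Bra013815 (A01:7907694-7908641) was at 616.7, 888.9 and 345.6 FPKM at 30 min and at 5.50, 10.9 and 10.4 FPKM at 180 min, a change of -5.91 ± 0.55 (log2, SE, limma adjusted p = 6.0e-08). Water libraries held 4.91 to 37.3 FPKM, so the late chitin level lay within their span. Bra024539 (A09:25749269-25749758) went from 133.9, 152.3 and 114.5 FPKM to 1.54, 0.971 and 1.33 FPKM, a ratio of means of 104.3-fold, and the late values again lay within the span of water (0.325 to 1.69 FPKM). Bra005312 (A05:4750426-4753464) went from 144.6, 145.7 and 156.2 FPKM to 1.57, 2.02 and 2.20 FPKM. All 3 of its late values remained above the 11 water libraries (0.250 to 1.34 FPKM).

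Bra039099 (A09:1519372-1519957) went from 237.5, 507.2 and 379.4 FPKM to 3.45, 6.75 and 7.31 FPKM. Its fall of 5.77 on the log2 scale stood beside a water course of -0.88 (limma adjusted p = 0.015), under 2-fold. Bra011180 (A01:3455584-3456712) fell by 5.37 on the log2 scale, from 178.7, 133.9 and 88.1 FPKM to 1.85, 2.44 and 2.10 FPKM, and its water course was -0.94 (limma adjusted p = 0.024). Bra012345 (A07:10545305-10545751) went from 272.5, 295.7 and 197.4 FPKM to 6.57, 3.85 and 3.33 FPKM. Both groups were separate in all of these genes, because no overlap between the times was a condition for choosing them.

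Of the remaining large falls, Bra022607 (A02:7555442-7556085) and Bra022606 (A02:7567180-7567464) lie within 1 stretch of chromosome A02 with Bra022605 (A02:7569840-7570330). Bra022606 was at 531.1, 580.0 and 321.5 FPKM at 30 min and at 7.00, 11.3 and 15.9 FPKM at 180 min. Bra022605 was at 518.6, 566.3 and 316.0 FPKM and then at 6.96, 11.9 and 15.6 FPKM, nearly the same values library by library. Whether these loci are near-identical copies that share reads could not be checked without their sequences, so their separate values are uncertain. Bra022607 was at 684.9, 568.3 and 440.7 FPKM and then at 8.50, 12.4 and 20.3 FPKM.

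Most of the 8 largest rises started from a few FPKM. Bra012103 (A07:12233982-12234401) was at 2.58, 1.12 and 2.28 FPKM at 30 min and at 122.2, 143.4 and 90.6 FPKM at 180 min, a rise of 5.33 ± 0.20 (log2, SE, limma adjusted p = 2.5e-13). Water libraries held 0 to 0.303 FPKM, so both chitin times were above all of them. Bra022699 (A02:6921347-6921538) was at 2.63, 0 and 1.07 FPKM and then at 112.4, 69.0 and 60.7 FPKM. Water libraries held 12.8 to 81.7 FPKM, so this gene rose from below the water range and its late values overlapped it.

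Bra006137 (A03:2172208-2172630) rose from 1.66, 1.29 and 0.719 FPKM to 39.9, 64.1 and 79.7 FPKM, above the 0.410 to 9.43 FPKM of water. Bra026986 (A09:36382716-36384997) rose from 4.00, 1.08 and 2.43 FPKM to 164.8, 107.8 and 44.1 FPKM. Bra028465 (A07:14187259-14187960) rose from 5.03, 0.798 and 1.48 FPKM to 76.8, 100.3 and 66.7 FPKM. Replicate 1 was the highest library at 30 min in these 3 genes.

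Bra017637 (A03:29519432-29522023) rose from 15.9, 6.36 and 7.06 FPKM to 391.5, 243.5 and 126.0 FPKM, by 4.52 ± 0.75 (log2, SE, limma adjusted p = 3.8e-05). Bra009250 (A10:14649866-14650501) rose from 11.8, 1.66 and 4.04 FPKM to 159.8, 132.9 and 113.8 FPKM. Its water libraries at 180 min held 114.3 to 159.4 FPKM, nearly the same span. Bra032894 (A09:23182198-23183143) rose from 81.7, 30.5 and 10.5 FPKM to 1079, 690.9 and 631.2 FPKM. It rose in water too, by 2.90 (log2, limma adjusted p = 0.0013), and the difference between the courses of 1.75 ± 0.91 (log2, SE, limma adjusted p = 0.12) did not pass the test. Its water values at 30 min were uneven. They were 371.8, 321.0 and 226.4 FPKM in 1-s1, 2-s9 and 3-s17, and 75.9 and 24.5 FPKM in 2-s13 and 3-s21. By the ranking above, 2-s13 and 3-s21 belong to the chitin set alone and 1-s1 to both sets. In water at 30 min, 2-s13 and 3-s21 were also the lowest for Bra022699, Bra026986, Bra028465, Bra009250 and Bra017637. For Bra012103 and Bra006137 they were not. Whether the sets differ was not tested.

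**Figure D4:**
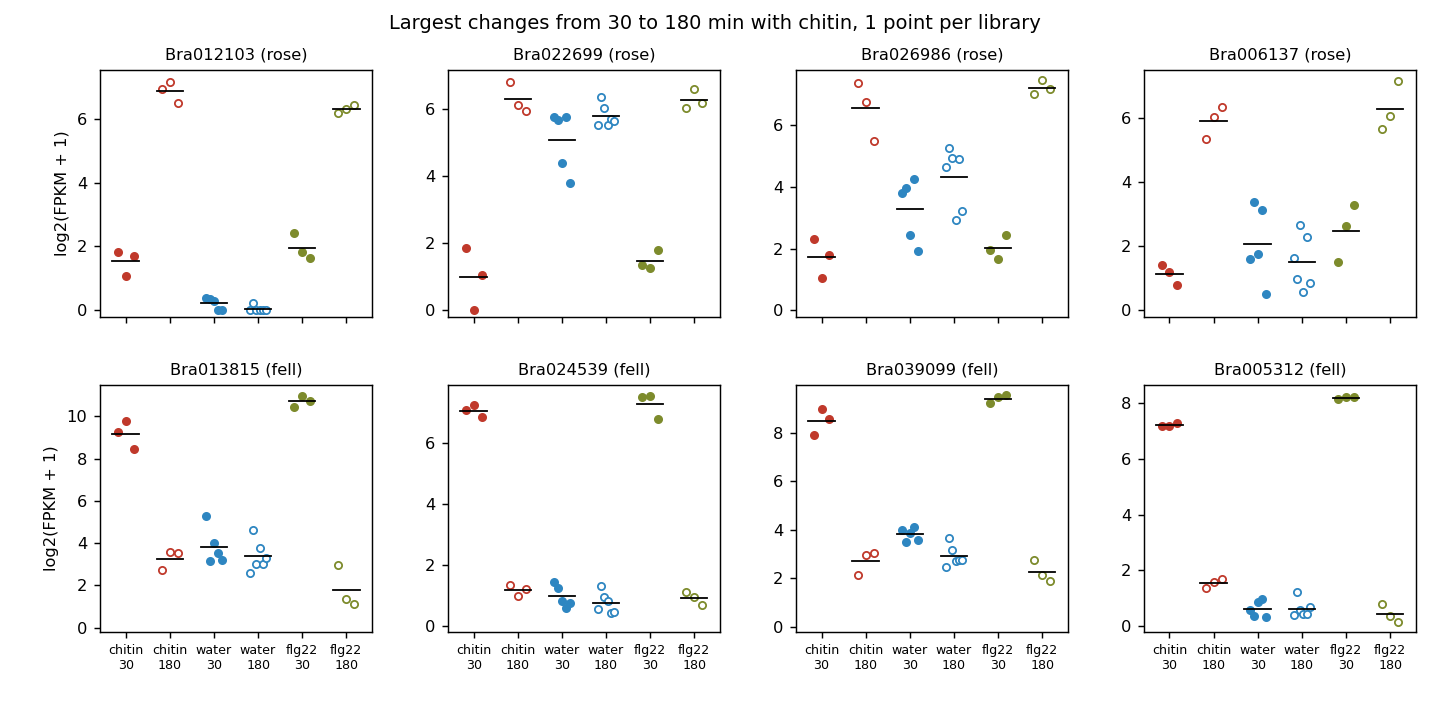
Levels of the 4 genes with the largest rises (upper row) and the 4 with the largest falls (lower row) from 30 to 180 min of chitin, as log2(FPKM + 1) on the y axis, with 1 point per library, the line at the mean, filled points for 30 min and open points for 180 min of chitin (red), water (blue) and flg22 (green). Bra022699 rose to the water level, whereas Bra012103 rose above it, and the 4 falls started far above water.

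The most abundant called genes made smaller changes. Bra018543 (A02:15817718-15818542) was at 4028, 2431 and 2977 FPKM at 30 min and rose by 1.86 ± 0.36 (log2, SE, limma adjusted p = 0.00017) to a mean of 3.60-fold that level. Bra027286 (A05:20842154-20844157) rose from 1113, 393.3 and 421.6 FPKM to 6784, 4604 and 2246 FPKM. Bra021101 (A01:23136857-23137687) and Bra027049 (A09:8336544-8338171) rose by 1.28 and 1.47 on the log2 scale. After median-ratio scaling Bra021101 was at 0.88, under 2-fold, and the other 3 kept their calls.

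Bra017055 (A04:16987165-16989725) fell from 4992, 5936 and 6190 FPKM to 1797, 2705 and 3289 FPKM, by 1.17 on the log2 scale (SE 0.32, limma adjusted p = 0.0034). Its water libraries held 3456 to 7908 FPKM, so the late chitin values lay below all of them. Without replicate 1 at 180 min its fall was under 2-fold (-0.93). Bra025431 (A04:9149800-9150588), Bra003624 (A07:17398856-17399480) and Bra037913 (A09:16104369-16105700) fell by 1.17, 1.00 and 1.17 on the log2 scale. These 3 falls were not firm. Without replicate 1 at 180 min they came to -0.81, -0.65 and -0.76 and no longer passed the test, and without replicate 3 at 30 min Bra025431 (-0.96), Bra003624 (-0.90) and Bra037913 (-1.03) did not pass either. Without replicate 2 at 30 min Bra025431 (-1.18), Bra037913 (-1.12) and Bra003624 (-0.95), and without replicate 2 at 180 min Bra025431 (-1.32), also lost the call.

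Called genes lay on all 10 chromosomes. The share of tested genes that rose was 16.7% on A02 to 21.9% on A01, and the share that fell was 12.4% on A10 to 14.1% on A09. Where the next gene along the chromosome was also tested, it had risen too for 569 of 2362 genes that rose (24.1%), beside 18.4% over all tested genes. It had fallen too for 308 of 1676 genes that fell (18.4%), beside 13.2%. The longest run of risen neighbours was 6 genes, Bra016712 to Bra016717 (A08:18866645-18887582), with log2 changes of 1.02 to 1.97. The longest run of fallen neighbours was 5 genes, Bra013657 to Bra013661 (A01:6905286-6934400), with log2 changes of -2.72 to -1.12. Neighbours can include duplicated genes that share reads. These runs were picked after their values were seen.

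Discs in water changed far less over the same interval. Of the same 22019 genes, 452 rose (2.05%) and 368 fell (1.67%) between 30 and 180 min of water. Without water library 3-s21 at 30 min the number that rose was 299. After median-ratio scaling 414 rose (1.88%) and 378 fell (1.72%). Of the genes that rose with chitin, 281 also rose in water, which is 6.92% of the chitin list and 62.2% of the water list. For falls the number was 232, or 7.98% and 63.0%. With scaling, 227 genes rose in both, 54.8% of the water list, and 271 fell in both, 71.7% of the water list. The difference between the courses was tested directly. The chitin course was higher than the water course in 3092 genes (14%) and lower in 2262 (10.3%). These included 2623 of the genes that rose with chitin (64.6%) and 1934 of those that fell (66.5%). After median-ratio scaling, 1449 were higher (6.58%) and 3458 lower (15.7%).

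Of the 4 largest negative differences from water, 3 were the neighbouring genes on A02 and 1 was Bra005312. For Bra022607 the difference was -6.07 ± 0.68 (log2, SE, limma adjusted p = 1.7e-06), while its water course was 0.75. Among the rises, Bra034848 (A05:22431212-22437955) was at 3.74, 8.19 and 15.4 FPKM and then at 88.5, 86.3 and 85.4 FPKM with chitin, while in water it ran from a median of 21.3 FPKM to one of 6.66 FPKM. Its difference was 4.82 ± 0.86 (log2, SE, limma adjusted p = 0.00020). Bra013547 (A01:6243271-6245298) was at 5.56, 1.86 and 0.572 FPKM and then at 81.5, 30.2 and 13.8 FPKM with chitin, and at medians of 15.1 and 4.62 FPKM in water. Neither water course passed the test by itself, at -1.52 (log2, limma adjusted p = 0.060) for Bra034848 and -1.31 (log2, limma adjusted p = 0.27) for Bra013547. Among the genes with names, LYK5 (-2.80), CYP79B3 (3.32), SAMS3 (2.73), UGT74B1 (2.72), APK2 (2.64) and the endochitinase (2.15) had differences from the water course that were called in the same direction as their chitin course.

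The course with flg22 moved genes in similar numbers. With flg22 4833 genes rose (21.9%) and 2534 fell (11.5%), and after median-ratio scaling 1998 rose (9.07%) and 3971 fell (18%). Of the genes that rose with chitin, 2840 rose with flg22 as well, which is 70.0% of the chitin list and 58.8% of the flg22 list. For falls the number was 1784, or 61.3% and 70.4%. After median-ratio scaling 1110 genes rose with both elicitors, 55.6% of the flg22 list, and 3015 fell with both, 75.9% of the flg22 list. The 2 comparisons share no library. The study had a water set for each elicitor, so differences between chitin and flg22 may include a difference between sets, which was not tested. The difference between the courses passed the test in fewer genes, 680 with a higher change with chitin (3.09%) and 726 with a lower one (3.3%). Of the 680, 388 fell with both elicitors and fell less with chitin, 203 were called as falls with flg22 but not with chitin, and 60 rose with chitin. Of the 726, 291 were called as rises with flg22 but not with chitin, 84 rose with both and rose less with chitin, and 169 were called as falls with chitin but not with flg22.

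These 2 counts moved with scaling and with single libraries. After median-ratio scaling they were 982 (4.46%) and 431 (1.96%). The count of genes with a higher change with chitin was 434 without chitin replicate 2 at 180 min, 440 without chitin replicate 3 at 30 min and 421 without flg22 replicate 3 at 180 min. The count of genes with a lower change was 1219 without chitin replicate 1 and 423 and 454 without replicates 2 and 3 at 30 min, and 379, 450 and 1092 without chitin replicates 1, 2 and 3 at 180 min. It was 430 and 398 without flg22 replicates 1 and 3 at 180 min.

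**Figure D5:**
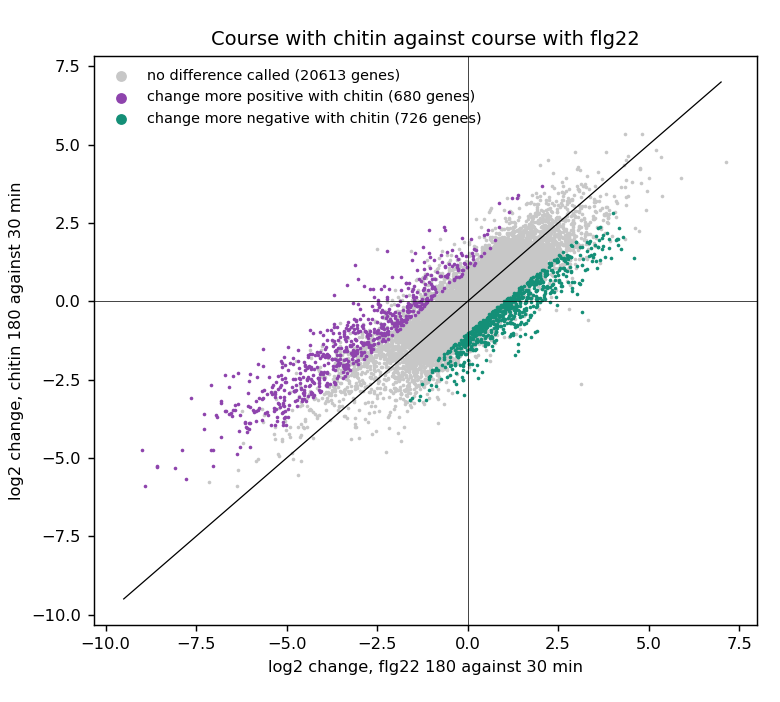
Log2 change from 30 to 180 min with flg22 (x axis) and with chitin (y axis) for the 22019 tested genes, on the log2(FPKM + 1) scale, with the diagonal marking equal changes. Purple points are the 680 genes with a more positive and green points the 726 genes with a more negative change with chitin, and most purple points lie where both changes are negative.

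Several short genes fell to near the water level with flg22 and were left above it with chitin. Bra032177 (A04:10650901-10651161) was at 161.1, 159.7 and 93.0 FPKM and then at 13.6, 25.0 and 9.41 FPKM with chitin, and at 456.6, 453.6 and 632.6 FPKM and then at 3.44, 1.44 and 0.522 FPKM with flg22. Its water libraries held 0.452 to 3.62 FPKM. It thus started higher and ended lower with flg22, and the difference between the courses was 4.55 ± 0.62 (log2, SE, limma adjusted p = 0.00026). Bra011029 (A01:4347623-4347844), at 4.42 ± 0.56 (log2, SE), and Bra039193 (A09:33114071-33114325), at 4.35 ± 0.48 (log2, SE), had the same pattern, with 29.6 to 54.4 and 11.6 to 24.6 FPKM left at 180 min of chitin against 1.19 to 5.90 and 0.549 to 1.91 FPKM with flg22.

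Bra010367 had a similar difference between the courses, but with flg22 it stayed above all water libraries (at most 2.35 FPKM). With flg22 it was at 934.2, 773.3 and 766.6 FPKM at 30 min and at 16.3, 8.43 and 5.39 FPKM at 180 min, and its difference was 4.06 ± 0.54 (log2, SE, limma adjusted p = 0.00022). LYK5 fell to 2.22, 2.54 and 1.00 FPKM with flg22, inside or below the water range, where chitin left 8.24 to 10.8 FPKM. Its difference of 1.61 ± 0.42 (log2, SE, limma adjusted p = 0.021) was lost without flg22 replicate 2 at 30 min (1.45) or flg22 replicate 3 at 180 min (1.36). BraNHL10 was at 960.6, 1094 and 977.0 FPKM and then at 94.3, 84.4 and 79.8 FPKM with flg22, and its difference of 2.11 ± 0.76 (log2, SE, limma adjusted p = 0.085) did not pass the test. Bra017264 (A04:15783285-15785044) was listed at 0 in all 11 water libraries, in the 3 of flg22 at 180 min and in replicate 1 of chitin at 180 min. With chitin it was at 320.4, 350.1 and 312.8 FPKM at 30 min and at 46.0 and 38.2 FPKM in the other 2 libraries at 180 min.

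Among late genes, the endochitinase separated the elicitors. With flg22 it was at 32.0, 26.0 and 23.3 FPKM at 30 min and at 35.8, 32.7 and 43.1 FPKM at 180 min, and the difference was 1.67 ± 0.37 (log2, SE, limma adjusted p = 0.0092). CYP79B3 reached 13.3, 23.4 and 19.8 FPKM at 180 min of flg22, a rise of 1.38 (log2, limma adjusted p = 0.0032) that was under 2-fold after median-ratio scaling (0.89). Its difference of 1.92 ± 0.53 (log2, SE, limma adjusted p = 0.029) was lost without chitin replicate 1 at 30 min (1.61), without chitin replicates 1 (1.88) or 2 (1.95) at 180 min, without flg22 replicates 2 (1.76) or 3 (1.67) at 30 min, and without flg22 replicates 1 (1.71) or 3 (1.98) at 180 min. UGT74B1 rose with flg22 as well, by 1.94 (log2, limma adjusted p = 0.00023), to 134.5, 171.8 and 150.1 FPKM at 180 min. Its difference of 0.85 ± 0.56 (log2, SE, limma adjusted p = 0.36) did not pass the test. The same held for SAMS3, at 1.30 ± 0.66 (log2, SE, limma adjusted p = 0.23), and APK2, at 1.44 ± 0.57 (log2, SE, limma adjusted p = 0.12). By quantitative PCR in other samples, the study reported SAMS3, UGT74B1 and the endochitinase as raised by chitin only. The study had picked such genes by comparing each elicitor with water of the same time. The courses here run from 30 to 180 min, so the 2 results are not directly comparable.

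In the other direction, Bra008519 (A02:15155724-15157563) rose to 123.2, 117.7 and 85.7 FPKM with flg22 and to 8.00, 12.9 and 12.3 FPKM with chitin, from at most 7.78 FPKM at 30 min of either. The difference was -3.23 ± 0.63 (log2, SE, limma adjusted p = 0.0042). Its smaller rise with chitin, 1.37 on the log2 scale, came to 0.97 without replicate 1 at 30 min and then did not pass the test. Water libraries held 7.06 to 21.0 FPKM at 30 min and 10.35 to 35.4 FPKM at 180 min. The chitin course exceeded the water course by 0.90 ± 0.56 (log2, SE, limma adjusted p = 0.18), which did not pass the test. Bra033035 (A02:22303607-22306196) fell with chitin from 20.3, 31.9 and 24.7 FPKM to 0.992, 1.75 and 5.43 FPKM. It stayed at 18.1 to 23.5 FPKM with flg22 and at 33.8 to 57.5 FPKM in water at 180 min. Its difference from the flg22 course was -2.90 ± 0.44 (log2, SE, limma adjusted p = 0.00055), and that from the water course was -3.28 ± 0.38 (log2, SE, limma adjusted p = 2.8e-06).

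Bra026465 (A09:3105049-3108880) was at 5.33, 27.9 and 24.1 FPKM and then at 2.55, 4.54 and 5.49 FPKM with chitin, overlapping between the times, and at 3.56 to 20.6 and then 16.9 to 25.0 FPKM with flg22. The difference was -3.02 ± 0.74 (log2, SE, limma adjusted p = 0.015), and with only the chitin and flg22 libraries in the fit the adjusted p was 0.052 (limma). Bra014324 (A08:1632087-1632323) had a similar pattern, with 10.8, 42.8 and 23.1 FPKM and then 2.50, 8.09 and 13.3 FPKM with chitin. That fall, -1.59 on the log2 scale, did not pass the test without replicate 2 (-1.13) or 3 (-1.56) at 30 min or replicate 1 (-1.02) or 2 (-1.71) at 180 min. It also missed with no filter (limma adjusted p = 0.055) and with the chitin libraries alone (limma adjusted p = 0.061). Its difference of -2.97 ± 0.91 (log2, SE, limma adjusted p = 0.046) was lost without chitin replicates 2 or 3 at 30 min (-2.51 and -2.94), chitin replicates 1 or 2 at 180 min (-2.40 and -3.09), flg22 replicates 1 or 2 at 30 min (-3.06 and -2.67) or flg22 replicates 1, 2 or 3 at 180 min (-2.90, -3.08 and -2.93). It was also lost after median-ratio scaling (-2.83, limma adjusted p = 0.068) and with no filter (limma adjusted p = 0.072). In both genes replicate 1 was the lowest chitin library at each time. Neither chitin course passed the test against the water course. The difference from water was -0.48 ± 0.65 for Bra026465 (log2, SE, limma adjusted p = 0.55), which fell in water too (-1.25, limma adjusted p = 0.040). For Bra014324 it was -0.72 ± 0.80 (log2, SE, limma adjusted p = 0.47), beside a water course of -0.87 (limma adjusted p = 0.29).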

How the data were processed

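RNA-seq was done on leaf discs from stranded mRNA libraries. The authors trimmed reads with Trimmomatic 0.36, mapped them to B. rapa chromosome v1.5 with HISAT2 and made gene tables with StringTie 2.0. Each deposited table gives coverage, FPKM and TPM per gene. The FPKM deposited by the authors were the main values, the TPM deposited by the authors were an alternative, and the coverage signal deposited by the authors gave only aligned bases. Read counts were not used here.

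Genes that reached an FPKM of 1 in 3 or more of the 6 chitin libraries were tested on log2(FPKM + 1) with limma 3.58.1 in R 4.3.3 (mean-variance trend, 1 coefficient per condition, all 23 libraries in 1 fit). Benjamini-Hochberg adjustment ran over all 22019 tested genes, and courses were compared with interaction contrasts. The fit was tested on simulated data. No library pair shared more than 0.00344% identical values above 0. The labels call replicates biological, and p-values measure the spread between these libraries.

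Named genes were every gene the study names by identifier, the 8 largest rises and 8 largest falls with a mean FPKM of at least 10 in the higher group and no overlap, the 4 largest differences each way from the water and flg22 courses, and the 4 most abundant calls each way. Members, lists and rules were chosen with earlier results of these data known. Lists of pathway and marker symbols could not be matched to identifiers and were not used. Alternatives were median-ratio scaling, TPM, a pseudocount of 0.1, no filter, a mean FPKM of at least 5, unadjusted p, a 4-fold threshold (log2 change of 2), a fit to the compared conditions alone, a replicate block and leaving out each library. Python 3.11.15 and pandas 2.3.3 were used for tables.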

Additional observations from a re-analysis of the deposited data

Results flagged for a closer look

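The difference between the chitin and the water course passed the test (limma interaction contrast) in 3092 genes with a higher and 2262 with a lower change with chitin. Against flg22 the numbers were 680 and 726. Among the named genes, 19 differed from the water course. The differences (log2, chitin minus water) were -2.80 for LYK5 (Bra021861), 1.195 for Bra009660 (0.84 after median-ratio scaling, under 2-fold), 1.17 for Bra031434, 2.64 for APK2 (Bra017872), 3.32 for CYP79B3 (Bra030246), 2.72 for UGT74B1 (Bra024634), 2.73 for SAMS3 (Bra017219), 2.15 for the endochitinase (Bra000310), -2.79 for Bra010367, -3.58 for Bra009738 and 2.10 for Bra020747. Among the largest differences they were 5.51 for Bra012103, 5.35 for Bra006137, 4.82 for Bra034848 and 4.76 for Bra013547, and on the other side -6.07 for Bra022607, -5.69 for Bra022606, -5.69 for Bra005312 and -5.67 for Bra022605.

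Against flg22, 13 named genes differed. The differences (log2, chitin minus flg22) were 1.61 for LYK5 (Bra021861), 1.92 for CYP79B3 (Bra030246), 1.67 for the endochitinase (Bra000310), 4.06 for Bra010367, 4.55 for Bra032177, 4.42 for Bra011029 and 4.35 for Bra039193. They were -3.23 for Bra008519, -3.02 for Bra026465, -2.97 for Bra014324 and -2.90 for Bra033035. For Bra020747 the difference was -1.28, and it was lost under 13 of 18 alternatives. The fitted 4.25 of Bra017264 rests on values listed at 0 and is no measure of a fold.

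Single water libraries stood far from the others of their group (Dixon's test at 95%) in 15 of 110 groups of a named gene and a water time. At 30 min these were library 3-s17 for UGT74B1 (102 FPKM), Bra028465 (10.3 FPKM), Bra034848 (90.5 FPKM) and Bra013547 (57.9 FPKM), and library 1-s1 for Bra013815 (37.3 FPKM). At 180 min they were library 1-s7 for the endochitinase (41.6 FPKM), Bra012103 (0.166 FPKM), Bra005312 (1.34 FPKM) and Bra032177 (3.47 FPKM), library 3-s19 for Bra031321 (4.98 FPKM), Bra028465 (13.6 FPKM) and Bra012345 (5.30 FPKM), library 2-s11 for Bra034848 (19.0 FPKM) and Bra008519 (35.4 FPKM), and library 3-s23 for Bra026465 (31.6 FPKM). Chitin groups, with 3 libraries each, were not examined in this way. The test used FPKM without a log scale, and the water groups share the same libraries and hold both control sets. How many such libraries chance alone gives is thus not known here.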

How the results depend on the processing

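Median-ratio scaling moved the rises with chitin from 4059 to 2078, the flg22 course to 1998 rises and 3971 falls, the chitin minus water differences to 1449 higher and 3458 lower, and the lower chitin minus flg22 differences to 431. A log2 change of at least 2 left 596 rises and 837 falls with chitin, 76 and 44 in water, 873 and 1110 with flg22, 431 and 631 for chitin minus water, and 254 and 88 for chitin minus flg22. For chitin minus flg22, an unadjusted p gave 1130 higher and 1277 lower, and a mean FPKM of at least 5 left 459 lower. Leaving out 1 library gave 3720 to 4507 rises and 2396 to 3283 falls with chitin, 299 (without water library 3-s21 at 30 min) to 570 rises and 266 to 422 falls in water, and 421 to 1004 higher and 379 to 1219 lower differences from flg22, with the values per library given above. Over these omissions CERK1 (Bra031293) ran from -0.49 to 0.010 and Bra009738 from -0.71 to 0.13 (log2), both turning without chitin replicate 1 at 30 min. The cause was not tested.

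Of 54 named genes tested under up to 14 alternatives, 14 changed the call (2-fold and adjusted p) or direction of their chitin course at least once. Of the named differences, 2 of 19 from water and 6 of 13 from flg22 were lost at least once. These checks of the differences were added after seeing the data. Replicate numbers were not treated as pairs. Deviations of same-numbered libraries at 30 and 180 min of chitin correlated at 0.512, 0.012 and 0.372, and replicate 2 at 30 min correlated better with replicate 3 at 180 min (0.364). With flg22 same-numbered libraries correlated at 0.087, 0.138 and 0.066, and the other pairs at -0.087 to -0.031. Deviations are taken from the mean of 3 libraries, so these correlations are not independent of each other and do not settle the pairing. The replicate block gave 4067 rises and 2919 falls over all libraries, and 4111 and 2961 over the chitin libraries alone, where the adjusted p of Bra002021 was 0.015 (limma), still under 2-fold. The block over all libraries took the fall of Bra025431 to an adjusted p of 0.056 (limma). Depth limits low genes, and StringTie values of 0 may be failed estimates.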
